A study of Mus musculus with 2 samples.

Results

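The NF-kB transcription factors and their inhibitors were examined in mouse fetal liver macrophages with and without c-Maf. The 10 listed genes were the subunit genes Nfkb1, Nfkb2, Rela, Relb and Rel and the inhibitor genes Nfkbia, Nfkbib, Nfkbie, Nfkbiz and Tnfaip3. Members were chosen by symbol: every probe set that the platform annotation gives to only 1 gene was taken where that gene was a listed one. This gave 19 probe sets for 9 genes, out of 34945 probe sets and 18193 genes named in the same way. Nfkb1 was not analysed here. One array carried RNA from c-Maf-/- embryos (the c-Maf KO array) and one from c-Maf+/+ embryos (the wild-type array), both of strain C57BL/6J at stage E15.5 of embryonic development, with no treatment. The cells on both arrays were fetal liver cells sorted for surface Mac-1, encoded by Itgam, and F4/80, encoded by Adgre1. The sources used here do not state how many embryos went into each sort, and the deletion of c-Maf was not restricted to macrophages as far as the labels say. With 1 array per genotype there is no replicate and no test, and every statement describes these 2 arrays.

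NF-kB is a family of dimeric transcription factors built from Rel-homology proteins. In resting cells the dimers are held in the cytoplasm by IkB proteins, and signals from Toll-like, interleukin-1 and tumour necrosis factor receptors activate IkB kinase, which marks the IkB for destruction and frees the dimer. Macrophages use the pathway to switch on cytokines, chemokines and survival genes. Several of its own inhibitors are among the genes it induces, so that their transcripts are often read as a trace of recent NF-kB activity.

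The signals of the 2 arrays differed in overall level. The median deposited signal was 2.98 on the c-Maf KO array and 4.73 on the wild-type array, and the median log2 ratio of probe sets above the floor on both arrays was -0.87. Both scales are therefore given: signals as deposited, and level-adjusted signals after quantile normalization, which gives both arrays the same distribution and a median ratio of 0.02. A log2 ratio is c-Maf KO over wild type throughout. Signals were raised to a floor, 3.70 as deposited and 3.85 level-adjusted, before a ratio was taken, and where 1 array lay below it the fold is a bound. The ratios of different bright probe sets of the same gene differed with an SD of 0.65 log2 units (3423 probe sets of 1423 genes). Bright here means a mean deposited signal of at least 14.8, and dimmer probe sets are not covered. That SD is the only yardstick here, and animals, sorts and repeat arrays add variation that it does not hold. Maf itself had a signal of 0.219 on the c-Maf KO array against 47.6 on the wild-type array in its brightest probe set, at least 8.96-fold lower after level adjustment; whether its probes lie in the deleted part is not known here.

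The sequence that NF-kB dimers read was looked for at the members' own start sites, because this feedback is what makes inhibitors such as Nfkbia useful readouts. RefSeq promoters on GRCm38.p6, from 250 bases before to 50 bases after a start site, were found for 7 of the 10 listed genes, namely Nfkb2, Rela, Rel, Nfkbia, Nfkbib, Nfkbie and Tnfaip3. The classical kappaB consensus of 10 bases was searched on both strands, and overlapping matches are printed as 1 stretch. It was present in a promoter of 5 of these 7 genes, against 5.14% of the 27025 genes with a promoter (1388 genes). Capitals mark the matching bases, read 5′ to 3′ on the strand of the gene.
Nfkbia, chr12:55492642-55492701, minus strand: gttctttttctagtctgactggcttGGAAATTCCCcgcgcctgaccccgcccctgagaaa
Tnfaip3, chr10:19015388-19015447, minus strand: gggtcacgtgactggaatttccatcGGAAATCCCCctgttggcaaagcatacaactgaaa
Nfkbie, chr17:45555569-45555628, plus strand: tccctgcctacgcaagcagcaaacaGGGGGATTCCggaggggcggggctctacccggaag
Rel, chr11:23771026-23771086, minus strand: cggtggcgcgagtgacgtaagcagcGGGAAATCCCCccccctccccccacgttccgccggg
Nfkb2, chr19:46304673-46304760, plus strand: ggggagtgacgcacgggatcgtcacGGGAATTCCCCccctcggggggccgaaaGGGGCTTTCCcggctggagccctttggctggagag

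In Nfkbia the match began 29 bases before the start site, and in the Tnfaip3 stretch shown 12 bases before it. Promoters of Rela and Nfkbib held no match to these letters in this window. Tnfaip3 had a further match beginning 125 bases before its start site, and 2 other start sites of Nfkb2 had matches as well. A match describes the letters only and shows no binding.

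Among the subunits, Rela and Nfkb2 had level-adjusted ratios of c-Maf KO over wild type above that of the median probe set and Rel one below it, all within 2-fold or known only as a bound. Rela encodes p65, the transactivating partner of the canonical dimer. Its probe set 1419536_a_at had a deposited signal of 32.2 on the c-Maf KO array and 45.5 on the wild-type array, and level-adjusted signals of 52.4 in c-Maf KO and 33.0 in wild type. The log2 ratio was thus -0.50 as deposited and 0.67 level-adjusted. Rela was dimmer in raw signal, by less than the median probe set was, so its direction turned with the scale. The level-adjusted value was about as large as the SD between probe sets of a gene.

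Nfkb2 encodes p100, which holds RelB in the cytoplasm until it is processed to p52 in the non-canonical pathway. Its probe set 1429128_x_at, of the class whose probes may also match other transcripts, gave 10.2 in c-Maf KO and 10.8 in wild type as deposited. Level-adjusted it gave 15.46 in c-Maf KO and 8.44 in wild type, a log2 ratio of 0.87 against -0.09 as deposited. The other Nfkb2 probe set, 1425902_a_at, was below the floor on both arrays (deposited 0.480 in c-Maf KO and 1.76 in wild type). Nfkb2 therefore rested on 1 probe set with possible cross-hybridisation.

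Rel encodes c-Rel, a subunit of blood cells. Its probe set 1420710_at read 0.285 in c-Maf KO and 6.69 in wild type as deposited. The c-Maf KO signal lay below the floor, so Rel was at least 1.81-fold lower on the deposited scale; level-adjusted, the bound was 1.39-fold. The wild-type signal was itself less than 2-fold above the floor, and the array cannot show how much lower Rel was. Relb, the subunit of the non-canonical pathway, was below the floor on both arrays, with 1.92 in c-Maf KO and 1.95 in wild type as deposited, and no ratio is given for it.

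**Figure D1:**
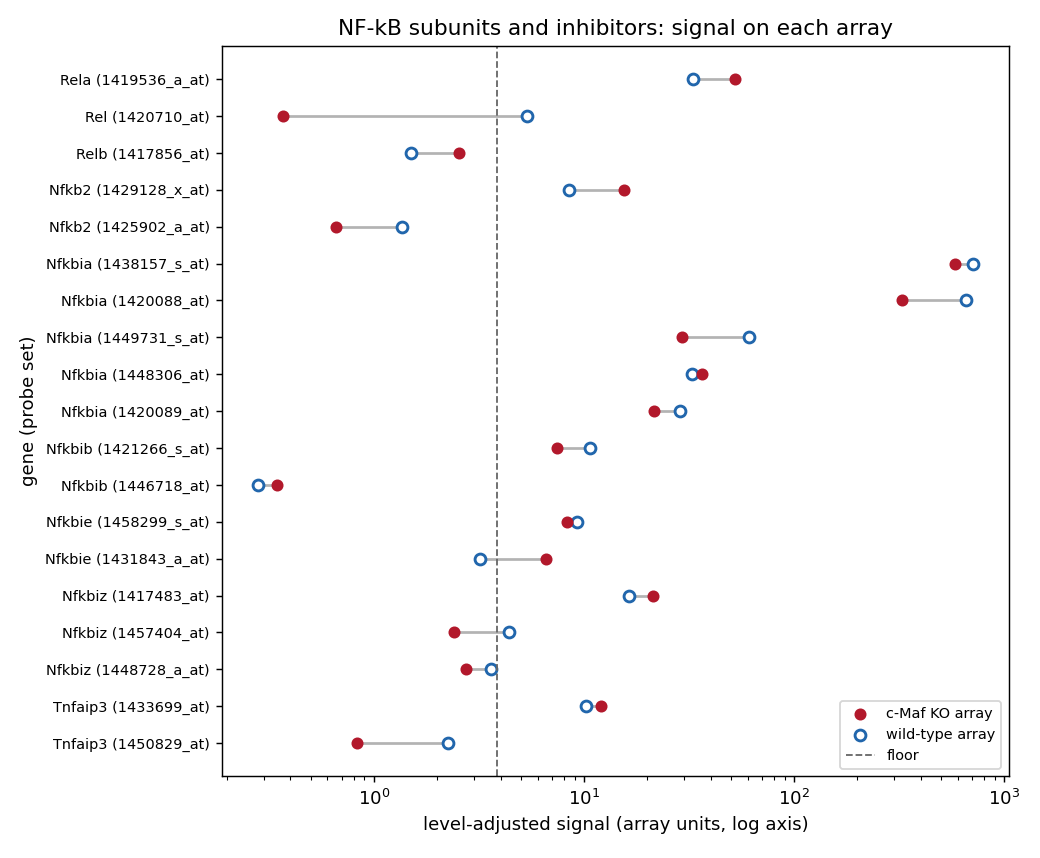
Level-adjusted signal (array units, log axis) of the 19 member probe sets on the c-Maf KO array (filled red) and the wild-type array (open blue), with the floor of 3.85 as a dashed line. Nfkbia probe sets 1438157_s_at and 1420088_at lie far to the right of the floor on both arrays, while 5 probe sets lie below it on both.

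Among the inhibitors, Nfkbia had the probe sets that were at least 2-fold lower in the c-Maf KO after level adjustment. Nfkbia encodes IkB-alpha, the main cytoplasmic inhibitor of Rela-containing dimers and itself rapidly induced by them. It had 5 probe sets, all above the floor on both arrays. The brightest, 1438157_s_at, read 400.3 in c-Maf KO and 921 in wild type as deposited, a log2 ratio of -1.20, or -0.28 level-adjusted. The next, 1420088_at, read 200.1 in c-Maf KO and 858 in wild type, a log2 ratio of -2.10, or -1.01 level-adjusted. The level-adjusted drop of 1420088_at was thus 2.02-fold, barely past the 2-fold limit, and the drop of 1438157_s_at was 1.21-fold.

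The dimmer Nfkbia probe sets were divided in the same manner. Probe set 1449731_s_at read 18.4 in c-Maf KO and 84.6 in wild type, a level-adjusted log2 ratio of -1.06. Probe set 1420089_at read 13.8 in c-Maf KO and 39.3 in wild type, with -0.41 level-adjusted. Probe set 1448306_at read 22.6 in c-Maf KO and 44.9 in wild type and was the only one with a positive level-adjusted ratio, 0.16. All 5 were lower in deposited signal, with log2 ratios from -2.20 to -0.99.

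Over the 5 Nfkbia probe sets the level-adjusted log2 ratio averaged -0.52 with an SD of 0.52 between probe sets, and the median was -0.41. Their range was 1.22. Of 133 genes with at least 5 probe sets above the floor on both, Nfkbia included, 89 had a range at least as wide, and the median range was 1.51. Genes with more than 5 probe sets or with dimmer ones were not left out, and both can widen a range. The comparison is therefore a loose one. Actb, a control with probes at both transcript ends, had a ratio of 3′ to 5′ signal of 6.05 on the c-Maf KO array and 13.3 on the wild-type array, and Gapdh had 0.90 in c-Maf KO and 1.83 in wild type. The position of the Nfkbia probe sets on the transcript is not known here, and the part of this 3′ to 5′ difference in their disagreement was not tested.

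**Figure D2:**
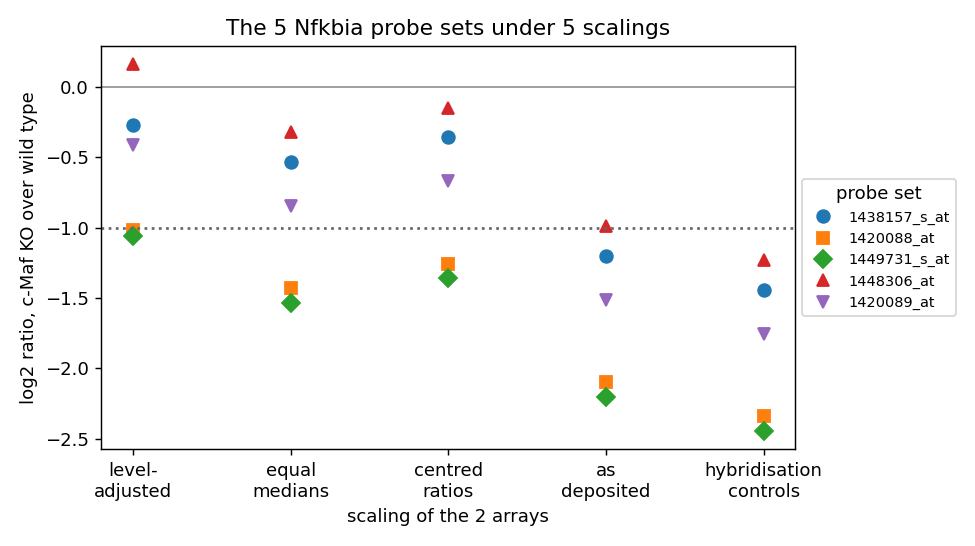
Log2 ratio of c-Maf KO over wild type (vertical axis) for each of the 5 Nfkbia probe sets under 5 scalings of the arrays (horizontal axis); the dotted line marks 2-fold lower. The probe sets keep nearly the same spacing while the scaling moves them all, and 1420088_at and 1449731_s_at are at or past 2-fold lower under each of the 5.

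The other IkB genes had signals closer to the floor, and no probe set of theirs was shown to differ by 2-fold on the level-adjusted scale. Nfkbib encodes IkB-beta, a cytoplasmic inhibitor that is resynthesised slowly after activation. Its probe set 1421266_s_at read 5.41 in c-Maf KO and 14.0 in wild type, with log2 ratios of -1.37 as deposited and -0.52 level-adjusted. The second Nfkbib probe set was below the floor on both arrays. Nfkbib thus lay below the median probe set on either scale, by less than the yardstick SD after level adjustment. Its probe set was dimmer than those behind that SD.

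Nfkbie, encoding IkB-epsilon, another NF-kB-induced cytoplasmic inhibitor, had probe sets on opposite sides. Probe set 1458299_s_at read 5.94 in c-Maf KO and 12.0 in wild type, with -1.01 as deposited and -0.16 level-adjusted. Probe set 1431843_a_at read 4.85 in c-Maf KO and 3.95 in wild type, a deposited log2 ratio of 0.30. After level adjustment its wild-type signal was below the floor, so it was at least 1.70-fold higher there. Both lay close to the floor, and no direction is given for Nfkbie.

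Nfkbiz encodes IkB-zeta, a nuclear IkB protein that helps switch on late targets rather than holding dimers in the cytoplasm. Its probe set 1417483_at read 13.6 in c-Maf KO and 22.0 in wild type, with -0.69 as deposited and 0.38 level-adjusted. Of its other probe sets, 1457404_at was below the floor in c-Maf KO (1.82, against 5.40 in wild type) and 1448728_a_at read 2.09 in c-Maf KO and 4.42 in wild type. After level adjustment 1457404_at was at least 1.14-fold lower and 1448728_a_at below the floor on both arrays, so the brightest probe set had no second one on its side.

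Tnfaip3 encodes A20, a ubiquitin-editing enzyme that shuts off signalling upstream of IkB kinase. Its probe set 1433699_at read 8.12 in c-Maf KO and 13.4 in wild type, with -0.72 as deposited and 0.23 level-adjusted. The second, 1450829_at, was below the floor on both arrays. Tnfaip3 was dimmer in raw signal by somewhat less than the median probe set was.

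Counted over probe sets, 14 of the 19 reached the floor on 1 or both arrays after level adjustment. Of these 14, 2 were at least 2-fold lower in the c-Maf KO, both of Nfkbia, against 9.18% of 22608 named probe sets; 0 were at least 2-fold higher, against 9.18% as well. As deposited, 6 of 15 were at least 2-fold lower, against 36.6% of 23013, and 0 were higher, against 1.27%. The 6 were 4 Nfkbia probe sets and 1 each of Nfkbib and Nfkbie. Both shares of lower probe sets, 14.3% and 40%, are near the background for so few probe sets, 5 of them from 1 gene. For bright probe sets, those with a mean deposited signal of at least 24.4, 11% were lower by 2-fold or more after level adjustment and 6.44% higher by as much. With 1 probe set per gene, the brightest, 0 of 8 measured member genes were at least 2-fold lower after level adjustment, against 9.4% of 13290 genes, and 0 were higher, against 8.82%. On the deposited scale 3 of 8 were lower by that much, against 39.8% of genes, and 0 higher, against 1.19%.

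**Figure D3:**
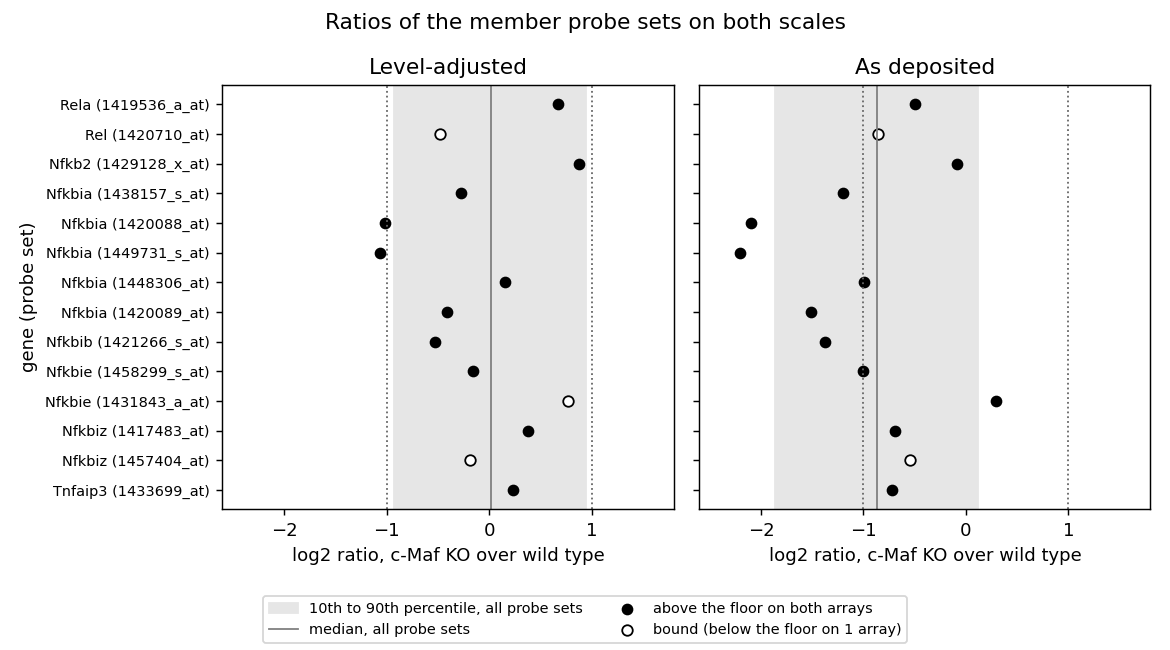
Log2 ratio of c-Maf KO over wild type for the 14 member probe sets that reached the level-adjusted floor on 1 or both arrays, level-adjusted (left) and as deposited (right). The grey band spans the 10th to 90th percentile of all named probe sets above the floor on both arrays and the dotted lines mark 2-fold; after level adjustment only 2 Nfkbia probe sets lie past a dotted line, just below the band.

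Differences between members in deposited log2 ratio do not depend on a common scale factor. As deposited, the log2 ratio of the brightest Nfkbia probe set was 0.70 log2 units below that of Rela (-1.20 against -0.50), so that the signal of this Nfkbia probe set relative to that of Rela was lower on the c-Maf KO array. The same difference from Rela was -0.87 for Nfkbib, -0.51 for Nfkbie, -0.22 for Tnfaip3, -0.20 for Nfkbiz and 0.41 for Nfkb2. As deposited, the differences of Nfkbia, Nfkbib and Nfkbie were between -0.87 and -0.51, beside a spread of 0.65 between probe sets of a single gene, and those of Tnfaip3 and Nfkbiz were well inside it. Level-adjusted, where the correction depends on signal, they were -0.95 for Nfkbia, -1.19 for Nfkbib and -0.83 for Nfkbie. The spread of 0.65 describes single probe sets, and a difference between probe sets varies more widely. It therefore cannot show whether these differences exceed the noise. With probe set 1448306_at, Nfkbia would lie at -0.99 as deposited, closer to Rela. The second Nfkbie probe set, 1431843_a_at, was at 0.30 as deposited and so above Rela. No direction relative to Rela is given for Nfkbie.

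Too few members had or lacked a kappaB match in the promoter for a difference between them to be read. With a match, the level-adjusted log2 ratios were 0.87 for Nfkb2, 0.23 for Tnfaip3, -0.16 for Nfkbie and -0.28 for Nfkbia, and Rel was at least 1.39-fold lower. Without one, Rela was at 0.67 and Nfkbib at -0.52. Over all measured genes with a promoter, those above the floor on both arrays had a median level-adjusted ratio of 0.03 with a match (456 genes) and 0.00 without (7262 genes). Of the 665 measured genes with a match 10.8% were lower by 2-fold or more and 9.17% higher by as much, against 9.39% lower and 8.82% higher of the 10036 genes without. In the list of NF-kB target genes, 3 of 9 measured genes with a match were at least 2-fold higher, against 2 of 11 without, and the medians of those above the floor on both arrays were 0.83 (7 genes) and -0.08 (6 genes), so few that no difference is read from them.

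Upstream of the inhibitors, several adaptor genes were lower after level adjustment, while Ikbkb was within 2-fold and the probe sets of Ikbkg disagreed. The IkB kinase and adaptor list had 25 measured genes of 30. Of these, 5 were at least 2-fold lower in the c-Maf KO and 0 higher after level adjustment, against 9.4% lower and 8.82% higher over all genes. The list median was -0.30 against 0.00 for all genes. Averaging the probe sets of each gene left 2 lower, against 5.46% of genes. As deposited, 18 of 25 were lower, against 39.8% of genes.

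Ikbkb, the catalytic subunit of the canonical IkB kinase, had a signal of 42.8 in c-Maf KO and 118 in wild type, a level-adjusted log2 ratio of -0.30. Ikbkg, the regulatory subunit NEMO, read 5.99 in c-Maf KO and 13.3 in wild type (-0.29) in its brightest probe set. Of its 4 probe sets above the floor on both arrays, 2 had positive ratios, and the larger, in a probe set almost as bright with 12.0 in c-Maf KO and 7.20 in wild type, was 1.68. Map3k14, the kinase NIK of the non-canonical pathway, read 4.86 in c-Maf KO and 8.41 in wild type (-0.02). Chuk was not analysed here. No direction is given for Ikbkg, and Ikbkb and Map3k14 differed from the median probe set by less than the yardstick SD after level adjustment. Map3k14 was dimmer than the probe sets behind that SD. As deposited Ikbkb was 2.76-fold lower.

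The adaptors were less even. Myd88, the adaptor of Toll-like and interleukin-1 receptors, read 28.6 in c-Maf KO and 52.8 in wild type, at 0.28 level-adjusted and -0.88 as deposited. Traf6, the ubiquitin ligase downstream of Myd88, read 5.21 in c-Maf KO and 21.3 in wild type (-1.15), and its other probe set above the floor was at -0.69. Traf2, which acts below tumour necrosis factor receptors, read 3.19 in c-Maf KO and 18.2 in wild type; its c-Maf KO signal was below the deposited floor and 4.15, just above the floor, after level adjustment (-1.72), so its size rests on a value near the floor. Birc2, encoding the ubiquitin ligase cIAP1, read 19.5 in c-Maf KO and 94.7 in wild type (-1.13).

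Tbk1, an IkB kinase-related kinase of the interferon pathway, read 10.6 in c-Maf KO and 58.5 in wild type (-1.40), while a dim Tbk1 probe set was at 0.16. The fifth was Tab2, which couples Traf6 to the kinase TAK1; it is named because the count is small, after its value was seen. It read 69.9 in c-Maf KO and 349 in wild type (-1.12), with a second probe set at -0.86. Traf6, Traf2, Birc2, Tbk1 and Tab2 had negative ratios under all 5 scalings. The 5 scalings are not separate checks of direction, here or elsewhere. Apart from the floor, all but level adjustment differ only by a common factor. The median over all genes was itself -0.93 as deposited and -1.16 with the hybridisation controls.

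The remaining inhibitors and IkB relatives were split. Of 19 measured genes of 20, 4 were lower by 2-fold or more after level adjustment and 1 was higher, against 9.4% lower and 8.82% higher of all genes, and the list median was -0.20 against 0.00. The count of lower genes was 11 as deposited, against 39.8% of all genes. With the floor as a pseudocount it was 1, against 8.83% of named probe sets. With the mean over probe sets it was 2, against 5.46% of genes. Nfkbid, encoding the nuclear IkB protein IkB-NS, read 6.71 in c-Maf KO and 29.4 in wild type (-1.18). Bcl3, another nuclear IkB relative, read 12.4 in c-Maf KO and 16.8 in wild type, at 0.61 level-adjusted and -0.43 as deposited. Nfkbil1 was at -0.27. The nuclear IkB genes thus went different ways, Nfkbid lower under all 5 scalings and Bcl3 turning with the scale.

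Cyld, a deubiquitinase that restrains the pathway, read 9.06 in c-Maf KO and 39.2 in wild type (-1.07), although another of its probe sets was at -0.20. Itch, a ubiquitin ligase that works with A20, read 7.01 in c-Maf KO and 30.3 in wild type (-1.14), with 1 of its 3 probe sets above the floor in the other direction. Nkiras1, encoding a Ras-like IkB-binding protein, read 3.33 in c-Maf KO, below the deposited floor, and 16.8 in wild type (-1.54, with the c-Maf KO signal near the level-adjusted floor). In contrast, Irak3, encoding the inhibitory kinase IRAK-M of macrophages, read 8.95 in c-Maf KO and 6.12 in wild type, at 1.44 level-adjusted and 0.55 as deposited. Tnip1, an A20-binding inhibitor, was at 0.83 level-adjusted and -0.30 as deposited, and Otulin was at -0.13. Of these, Irak3 alone was higher under all 5 scalings.

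Among the target genes Il1b, Cxcl2, Cxcl1, Ier3 and Ptgs2 were at least 2-fold higher in the c-Maf KO after level adjustment. This was by the brightest probe set of each gene and at low signal. Of 27 measured genes of 30, 5 were higher by 2-fold or more after level adjustment and 1 was lower by as much. Over all genes these shares were 8.82% higher and 9.4% lower. As deposited 0 of 28 passed 2-fold upwards and 7 downwards, against 1.19% higher and 39.8% lower of all genes. The count of higher genes was 3 of 27 with equal medians, 7 of 28 with centred ratios and 9 of 29 with a floor at the 25th percentile. It was 2 of 19 with one at the 65th and 2 of 10 among genes whose brighter signal was at least 4 times the floor. Of all named probe sets, 5.03%, 12.3%, 19.6%, 6.90% and 11.1% were higher in these settings, in that order. Il1b, encoding interleukin-1 beta, read 7.67 in c-Maf KO and 5.07 in wild type, a level-adjusted log2 ratio of 1.45 and 0.60 as deposited. Cxcl2, a neutrophil-attracting chemokine, read 8.29 in c-Maf KO and 5.97 in wild type (1.35 and 0.47 as deposited). Cxcl1, of the same family, read 15.9 in c-Maf KO and 9.85 in wild type (1.70 and 0.69 as deposited).

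Il1b, Cxcl2 and Cxcl1 were higher under all 5 scalings. Ier3, an early response gene, was at 1.22 level-adjusted and 0.11 as deposited, and turned negative (-0.13) with the hybridisation controls as the scale. The fifth gene was Ptgs2, the inducible cyclooxygenase, named after its value was seen. Its brightest probe set read 5.73 in c-Maf KO and 2.69, below the floor, in wild type. A second Ptgs2 probe set went the other way, with 1.23, below the floor, in c-Maf KO and 5.94 in wild type. No direction is therefore given for Ptgs2. Most of these signals lay within a few-fold of the floor, and level-adjusted ratios depend on signal: the median was -0.10 in the brightest 20% of probe sets and 0.02 over all.

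The other targets were mixed. At 1.5-fold after level adjustment, 10 of the 27 measured target genes were higher and 2 lower. Of all named probe sets, 21.7% were higher and 21.0% lower at that limit. Tnip1, also on this list, was at 0.83. Tnf read 0.806 in c-Maf KO and 4.97 in wild type and Traf1 1.32 in c-Maf KO and 5.20 in wild type, both below the floor in c-Maf KO and only just above it in wild type. Icam1, a leukocyte adhesion molecule, was at -0.11. Birc3, encoding cIAP2, read 12.0 in c-Maf KO and 37.4 in wild type (-0.57) in its brightest probe set, while a dim one was at least 2.35-fold higher. The gene that was at least 2-fold lower was Vcam1, with 3.90 in c-Maf KO and 24.4 in wild type (-1.81).

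**Figure D4:**
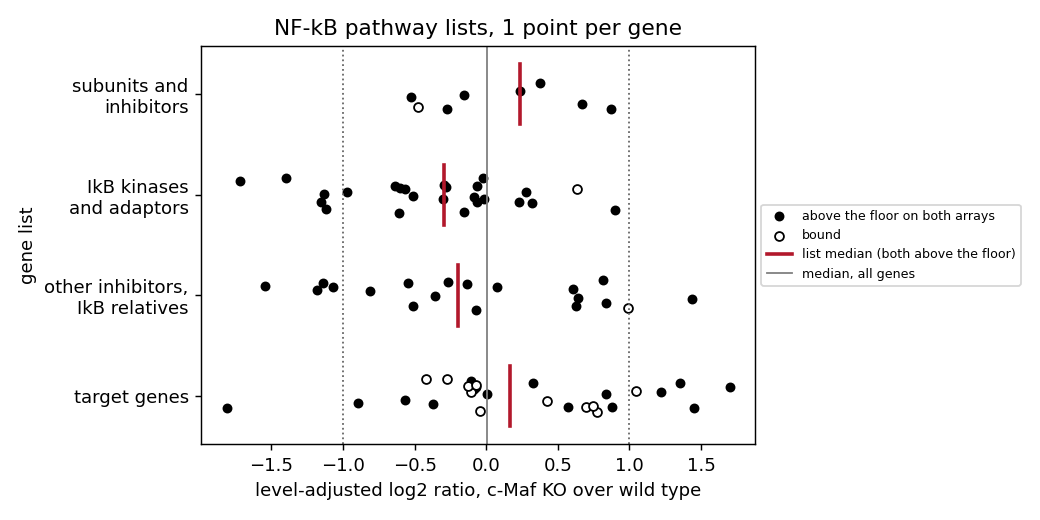
Level-adjusted log2 ratio of c-Maf KO over wild type, 1 point per gene by its brightest probe set, for the 4 NF-kB gene lists; open points are bounds, red bars medians over the filled points alone (16 target genes) and dotted lines 2-fold. Kinases and adaptors reach to -1.72 with a median of -0.30, while the target genes spread from -1.81 to 1.70 with a median of 0.17 over the filled points.

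Markers of other cells were also present and differed between the arrays. As bulk RNA was measured, fewer cells of a type and less RNA per cell cannot be told apart. Counts here are level-adjusted, at 2-fold, and stand against 9.4% lower and 8.82% higher of all genes. Of the macrophage list, 15 of 15 genes were above the floor on both arrays after level adjustment, with Lyz2 brightest (355 in c-Maf KO and 646 in wild type) and Itgam near the floor (3.94 in c-Maf KO and 5.76 in wild type). Of these 15, 5 were higher, among them C1qa (2.01), Cd68 (1.47) and C1qc (1.38). The 1 lower gene was Vcam1 (-1.81), also counted above as the lower target gene. Mrc1 (-0.90), Mertk (-0.79) and Csf1r (-0.24) were negative within 2-fold, and the rest of the list was positive. These genes were picked for naming with the ratios already known. The 15 macrophage genes had a median of 0.60, and as deposited 0 were higher and 4 lower. Their level-adjusted signals summed to 1372 in c-Maf KO and 1196 in wild type. Immediate early genes, which like Nfkbia respond to cell handling, had 4 of 15 measured genes lower and 0 higher, a median of -0.62 and a sum of 1486 in c-Maf KO and 1731 in wild type. Monocyte genes had 3 of 6 lower and 1 higher, with a sum of 1527 in c-Maf KO and 2105 in wild type. Granulocyte genes had 3 of 11 lower and 0 higher, with a sum of 10844 in c-Maf KO and 12565 in wild type, and S100a9 had the highest signal, 3812 in c-Maf KO and 4926 in wild type. Hepatoblast genes had 9 of 10 higher, Afp the brightest, with a sum of 966 in c-Maf KO and 280.0 in wild type and only Fgb below the floor on both arrays. As deposited, 10 of 15 immediate early, 5 of 6 monocyte and 8 of 11 granulocyte genes were lower, against 39.8% of all genes, and 3 of 10 hepatoblast genes were higher, against 1.19%. The part of these cells and of handling in the Nfkbia, adaptor and target gene values was not tested.

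Erythroid genes had 0 of 8 lower and 1 higher, with a median of 0.31 over those above the floor on both arrays. Their level-adjusted signals summed to 6116 in c-Maf KO and 8538 in wild type. Hbb-y made up most of both sums, with 5153 in c-Maf KO and 7670 in wild type (4650 and 7061 as deposited). The ratio of Hbb-y turned with the scaling, at -0.57 level-adjusted and 0.06 with equal medians. Lymphocyte genes had 1 of 6 lower, with Igll1 brightest (4.57 in c-Maf KO and 20.5 in wild type) and Cd3e and Cd3g below the floor on both arrays. Endothelial and stromal genes had 1 of 9 higher, with Kdr at 6.92 in c-Maf KO and 11.9 in wild type. Megakaryocyte and mast cell genes had 1 of 8 lower, with Pf4 at 52.1 in c-Maf KO and 102 in wild type.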

How the data were processed

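Total RNA of sorted fetal liver macrophages was labelled with biotin and hybridised to 2 Affymetrix arrays, per the labels' protocols. The authors deposited a linear intensity per probe set; the sources used here do not state how it was summarised or scaled. Of 45101 probe sets, 64 were controls, 34945 had 1 gene symbol, 932 several and 9160 none in the annotation table; 34741 of the single-symbol probe sets had an Entrez identifier in the GRCm38.p6 gene table, which gave the current symbol. No build applies to the intensities.

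Signals were quantile-normalized (the main scale; as deposited is an alternative), raised to a floor, the 50th percentile of both arrays together, and turned into log2 ratios with numpy 2.4.6 and pandas 2.3.3. A probe set was measured if it reached the floor on 1 or both arrays, and differences of 2-fold or more were counted. In gene lists the probe set brightest on average over both deposited arrays stands for its gene. The calculation was tested on simulated data. Detection calls were not used.

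Named genes were the members, Maf, fixed core genes of the kinase, inhibitor and target lists, up to 3 further genes per list with the largest level-adjusted ratio above the floor on both arrays, and the brightest gene of each marker list. The members and lists were chosen with earlier results of these data known. The number of arrays limits the precision, and no p-value was possible.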

Additional observations from a re-analysis of the deposited data

How the results depend on the processing

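No paired analysis was possible because each genotype had 1 array, and no array could be left out. The count of 2 of 14 member probe sets at least 2-fold lower was 6 of 15 as deposited, against 36.6% of named probe sets. Scaled to the hybridisation controls it was 7 of 15, against 45.6%. It was 4 of 18 with a floor at the 25th percentile, against 19.3%, and 0 of 14 at 3-fold, against 2.28%. Without suffixed probe sets it was 1 of 7, against 9.18%. With the brightest probe set per gene it was 0 of 8, against 9.4% of genes. With the mean over probe sets it was also 0 of 8, against 5.46% of genes. With ratios centred within 20 signal bins, an alternative added after seeing the data, it was 1 of 14, against 9.52%. The count of 0 at least 2-fold higher was 1 of 15 with ratios centred on the median probe set, against 12.3% of named probe sets. It was 1 of 18 with the floor at the 25th percentile, against 19.6%, and 3 of 14 at 1.5-fold, against 21.7%. Equal medians, the floor at the 65th percentile, the floor as a pseudocount and a limit of 4 times the floor on the brighter signal changed neither count. Fewer probe sets enter where suffixed ones are dropped or 1 is kept per gene; otherwise the cause was not tested. The deposited and hybridisation control scales lowered the ratio of each measured member's brightest probe set but that of Rel, and all 5 Nfkbia ratios, by more than 0.65 log2 units. The brightest Nfkbia probe set ran from -1.44 to -0.26, Nfkbib from -1.61 to -0.37 and Rela from -0.74 to 0.67. Without suffixed probe sets Nfkbia was at -1.01, and Rel at the lower floor was at -2.36. At 3-fold 1 kinase or adaptor gene was lower and 1 target gene higher. All probe sets at least 2-fold lower were 36.6% as deposited and 9.18% level-adjusted. Signal near the floor limits Rel, Relb, Nfkbie, Tnf and Traf1.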
